A study of Mus musculus with 4 samples.

Results

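The miR-297, miR-466, miR-467 and miR-669 family is a rodent group of microRNAs, most of whose genes stand in tandem inside Sfmbt2, a gene of the Polycomb group. The array carried 44 miRNA probes whose names begin with one of these 4 numbers and do not end with an asterisk, out of 700 miRNA probes in all. They comprised 3 probes named miR-297, 17 named miR-466, 8 named miR-467 and 16 named miR-669. The rule that picked the probes used names alone, but the family was chosen with earlier results of these data known.

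Mature microRNAs guide the silencing complex to messenger RNAs mainly through the seed, bases 2 to 8 from the 5′ end, so that microRNAs with 1 seed share many predicted targets. In the mouse, Sfmbt2 is imprinted and expressed from the paternal allele in extraembryonic tissue, and its intronic microRNAs are known from embryonic stem cells and the placenta. Many of these hairpins are built from alternating UG on the 5′ arm and CA on the 3′ arm, which leaves members close to each other in sequence.

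The RNA was from HC11, an established line of mouse mammary epithelium whose cells can be grown as progenitors or taken to milk protein expression; 2 samples were taken at each of 2 stages. Differentiated cells were held for 48 h in 2% serum (FBS) without epidermal growth factor and then kept for 72 h with 2 lactogenic hormones, dexamethasone at 100 nM and prolactin from sheep at 1 µg/mL. The medium was RPMI with insulin and gentamicin as labelled for the proliferating cells, and for the differentiated cells the labels name only the changes given here. Proliferating cells grew in 10% serum with epidermal growth factor and were collected after 48 h. Samples of the same replicate number, in opposite dyes, were taken as the channels of 1 array, numbered like the replicate; this was inferred from the dyes and the dye-swap design, and no label states it. The differentiated sample was in Cy5 on array 1 and in Cy3 on array 2. Every ratio per array and the fit below rest on this pairing. All samples are of 1 cell line, and the labels do not say whether samples of a stage came from separate cultures or from the same RNA with dyes swapped. P-values therefore rest on differences among these samples that can be technical. With 2 arrays the precision is low throughout, and a dye effect cannot be told apart from a difference between the replicates.

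The 7 members detected in at least 1 sample are shown first, with the seed in capitals, because the results below turn on them. The sequences are the targets listed with the probes in the deposited scanner tables.
miR-466f-3p: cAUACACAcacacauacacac
miR-467f: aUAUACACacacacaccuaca
miR-669c: aUAGUUGUguguggaugugugu
miR-669f: cAUAUACAuacacacacacguau
miR-466i: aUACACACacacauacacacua
miR-466g: aUACAGACacaugcacacaca
miR-669n: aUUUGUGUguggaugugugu
For contrast, 3 members detected in no sample are miR-467g, which has a CA repeat, miR-669a, which has a UG repeat and the largest number of matching genes, 12, and miR-467a, which has 10 matching genes.
miR-467g: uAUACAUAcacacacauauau
miR-669a: aGUUGUGUgugcauguucaugu
miR-467a: uAAGUGCCugcauguauaugcg

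Members are 20 to 24 bases long, and 35 of the 44 have another member within 3 single-base edits. They hold 29 different seeds. The 2 largest seed groups have 4 members each. The group of miR-466a-5p, miR-466b-5p, miR-466c-5p and miR-466e-5p shares AUGUGUG, which is also the seed of miR-1187. The group of miR-466a-3p, miR-466b-3-3p, miR-466d-3p and miR-467g shares AUACAUA, which is also the seed of the asterisk strand miR-297a*. The seed of miR-467a, AAGUGCC, is that of miR-290-3p and miR-292-3p, microRNAs of pluripotent cells. Each of the 7 detected members has a seed that no other probe of the array carries. A total of 25 members stand in 10 shared seed groups, and none of these 25 was detected. Of the whole family 15.9% were detected in at least 1 sample, and of all 700 miRNA probes 33.4% were. Outside the family, miR-1187 has a shared seed and was detected in 1 sample. The asterisk strands miR-467a* and miR-467b* share their seed with miR-669m, and they were detected in 2 and 3 samples. No test was made of seed and detection.

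In a RefSeq gene table of GRCm38.p6, 42 of the 44 members matched a miRNA gene by name, and miR-466a-3p and miR-466a-5p had no match by name. For 31 members every matched gene lies inside Sfmbt2, for 4 some do, and for 7 all lie elsewhere. Detection in at least 1 sample was seen for 3 of these 31 (miR-669c, miR-669f and miR-466g), for 1 of these 4 (miR-466f-3p) and for 3 of these 7 (miR-467f, miR-466i and miR-669n). The sequence of miR-467f has 1 exact match among RefSeq mature microRNAs, at chr11:69635419-69635439 on the minus strand of GRCm38.p6. That of miR-466i matched at chr13:17747552-17747573 on the plus strand, under the name miR-466i-3p. That of miR-669n matched at chr3:115979905-115979924, also on the plus strand. A probe whose sequence comes from several genes reads their sum, so the array does not say which copy gave the signal.

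Detection was read against the 180 empty spots of each sample. Signal is the mean of a probe's 5 spots over a local background, in intensity units. A probe counted as detected where at least 3 of its spots lay more than 3 SDs above the mean of the empty spots, a height called the detection margin below. This margin was 7.75 units in differentiated replicate 1, 156.5 in differentiated replicate 2, 13.2 in proliferating replicate 1 and 53.7 in proliferating replicate 2. In units, the margins of array 1 were thus much lower than those of array 2 in both stages. These units are not corrected for the brightness of each sample. Of all miRNA probes, 187 and 165 were detected in differentiated replicates 1 and 2, against 203 and 138 in proliferating replicates 1 and 2. Cell identity was read from marker microRNAs. Of 7 epithelial markers, 6 were detected in both differentiated samples and 4 in both proliferating samples, while miR-141 was detected in none. Of 16 markers of pluripotent and early embryonic cells, the cells in which the Sfmbt2 cluster is best known, 15 were undetected, and miR-290-5p was detected in 3 samples. Of 5 fibroblast markers, 2 were detected in both differentiated samples and none in both proliferating samples. Of 7 blood markers only miR-486 was detected in any sample, and of 2 endothelial markers none was. The summed signal of the fibroblast list was 108 and 695 units in differentiated replicates 1 and 2, against 31.7 and 65.4 units in proliferating replicates 1 and 2. For the epithelial list the sums were 18402 and 44601 units in the differentiated samples, against 5793 and 5159 in the proliferating samples. For the pluripotent list they were 32.1 and 750 units in the differentiated samples, against 85.3 and 177 in the proliferating samples. A sum includes undetected probes, 15 of the 16 in the pluripotent list, and a single empty spot averaged 53.3 units in differentiated replicate 2. The sums are not corrected for the brightness of each sample either, so they do not show a change between the stages. The part of these lists in the family's values was not tested.

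Most of the family was not detectable in HC11 cells at either stage. In differentiated replicates 1 and 2, 7 and 3 of the 44 members were detected, against 6 and 1 in proliferating replicates 1 and 2. Both differentiated samples detected miR-466f-3p, miR-467f and miR-669c, and both proliferating samples detected miR-466f-3p alone. Of all 700 probes, 22.1% were detected in both differentiated samples and 19.3% in both proliferating samples. At least 1 sample detected 7 members, that is 15.9% of the family, where 33.4% of all miRNA probes and 34.6% of the other 656 probes were detected at least once. The family had 15.9% and 6.82% of its probes detected in differentiated replicates 1 and 2, against 27.4% and 24.7% of the other probes. In proliferating replicates 1 and 2 it had 13.6% and 2.27%, against 30.0% and 20.9% of the other probes. In each of the 4 samples the detected share of the family was thus below that of the other probes, as a description with no test. A probe that is not detected has signal too low for this array to show, which is not the same as an absent microRNA.

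**Figure D1:**
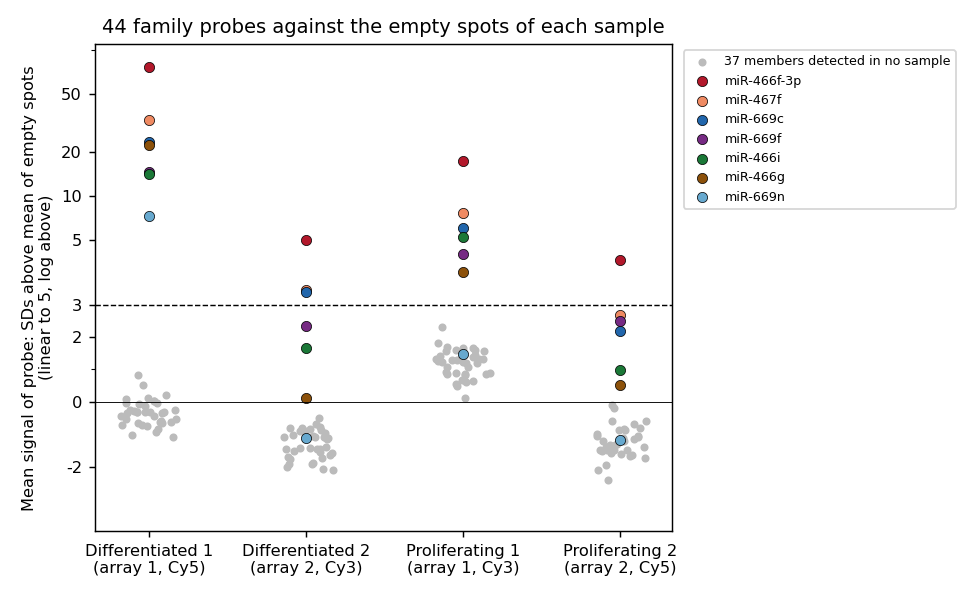
Each point is 1 of the 44 family probes in 1 sample, as SDs of the empty spots above their mean (vertical axis linear to 5 and logarithmic above), with the line at 3 SDs. The 37 members detected in no sample (grey) lie below the line in every sample, and 7 members pass it in differentiated replicate 1 and 3 in differentiated replicate 2, against 6 in proliferating replicate 1 and 1 in proliferating replicate 2.

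The other 37 members had signals near those of empty spots, each with a mean below the margin in every sample. Of these, 32 had no spot above the margin in any sample. The median signal over the whole family was 0.684 and 15.003 units in differentiated replicates 1 and 2, against 3.39 and 2.90 in proliferating replicates 1 and 2. In that order the mean of the empty spots was 1.35, 53.3, -4.24 and 17.4 units. Thus 30 and 38 members lay below the mean of the empty spots in differentiated replicates 1 and 2, against 0 and 38 in proliferating replicates 1 and 2. Over all 700 miRNA probes the median signal was 1.81 and 25.8 units in differentiated replicates 1 and 2. In proliferating replicates 1 and 2 it was 5.08 and 8.54 units. In both samples of array 2 this median too lay below the mean of the empty spots. A place below that mean is therefore not particular to the family there. All 3 miR-297 probes were undetected, as were miR-467a to miR-467e, miR-467g and miR-467h. Of the 17 miR-466 probes 14 were undetected, and of the 16 miR-669 probes 13 were. Among these is miR-466l, known for binding the messenger RNA of interleukin 10 in macrophages. It ranked at the 16.6th percentile of the 700 probes by signal, averaged over the 4 samples. The highest such rank of an undetected member was 53.9, for miR-467a, and the lowest was 7.75, for miR-669m. By mean rank over the 4 samples the top members were miR-466f-3p (84.0), miR-467f (80.9) and miR-669c (79.8). Probes differ in their own brightness, so ranks of different probes, here and below, are not amounts of microRNA.

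miR-466f-3p, from the 3′ arm of hairpins with copies inside and outside Sfmbt2, was the only member detected in all 4 samples. Its signal was 166 ± 27.9 and 226 ± 31.2 units in differentiated replicates 1 and 2, against 97.3 ± 19.9 and 70.4 ± 14.2 in proliferating replicates 1 and 2 (SD over 5 spots). Both differentiated values were above both proliferating ones on this scale, which does not correct for the brightness of each sample. By rank it stood at the 87.8th and 80.5th percentile in the differentiated samples, against the 85.5th and 82.4th in the proliferating samples. These ranks overlap between the stages. The other probes of its hairpins were not detected: miR-466f-5p averaged the 26.7th percentile and miR-466f the 43.7th.

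miR-467f, whose gene lies outside Sfmbt2, was detected in 3 samples. Its signal was 71.5 ± 15.7 and 172 ± 47.2 units in the differentiated samples, against 40.0 ± 12.3 and 49.8 ± 8.39 in the proliferating samples. In proliferating replicate 2 it had 2 spots above the margin and so missed detection there. Its ranks of 85.1 and 77.9 in the differentiated samples lay on either side of those in the proliferating samples, 81.1 and 79.4.

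miR-669c, with its gene inside Sfmbt2, was the only UG-type member detected in more than 1 sample. It read 50.9 ± 10.6 and 170 ± 20.7 units in the differentiated samples, against 30.6 ± 7.33 and 43.96 ± 13.1 in the proliferating samples. Here too 2 spots lay above the margin in proliferating replicate 2. Its ranks were 83.8 and 77.6 in the differentiated samples, against 79.5 and 78.2 in the proliferating samples, again overlapping.

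miR-669f, miR-466i and miR-466g were detected in both samples of array 1 and in neither of array 2. For miR-669f the signal was 32.4 and 133 units in differentiated replicates 1 and 2, against 22.3 and 47.7 in proliferating replicates 1 and 2. For miR-466i it was 31.6 and 110 units in the differentiated samples, against 26.0 and 29.1 in the proliferating samples. miR-466g read 48.6 and 57.8 units in the differentiated samples, against 19.0 and 23.7 in the proliferating samples. The array 2 signals of all 3 were larger in units than those of array 1 and still below the higher margin there. The empty spots of array 2 themselves averaged 53.3 units in its differentiated sample and 17.4 in its proliferating sample. In that order, miR-466g lay only 0.13 and 0.53 SDs above the mean of the empty spots. The values were 1.66 and 0.97 SDs for miR-466i, and 2.33 and 2.51 for miR-669f. Their detection therefore separated the arrays and not the stages. miR-669n was detected in differentiated replicate 1 alone, with 16.9 ± 2.29 units and 5 spots above the margin. It read 15.1 units in differentiated replicate 2, against 4.37 and 2.99 units in proliferating replicates 1 and 2, all below their margins. Set against the empty spots, the order differed. In SDs from their mean, miR-669n stood at -1.11 in differentiated replicate 2, against 1.48 and -1.19 in proliferating replicates 1 and 2.

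**Figure D2:**
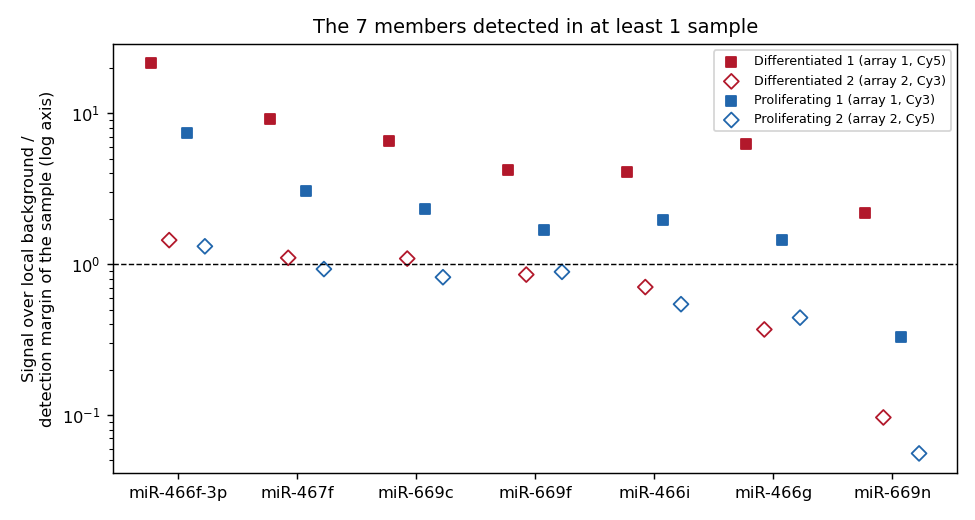
For each of the 7 detected members, the signal over local background is divided by the detection margin of its sample (log axis, dashed line at 1), with differentiated samples in red, proliferating samples in blue, array 1 filled and array 2 open. miR-466f-3p reaches 21.4 in the differentiated and 7.37 in the proliferating sample of array 1, while on array 2 its differentiated sample is at 1.44 and its proliferating sample at 1.31.

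The longest CA and UG repeat of each member was set beside its detection, as a description with no test. The minimum of 4 repeats was first set for probes outside the family, and its use on the members was chosen after their values were seen. An unbroken run of at least 4 CA was found in 6 probes of the whole array, all of them members, and 5 of these 6 were detected: miR-466f-3p, miR-467f, miR-466i, miR-669f and miR-466g. The exception was miR-467g, at the 30.8th percentile, with no spot above the margin in any sample. Of the 5 detected, miR-466f-3p and miR-466i are 3 edits apart, and miR-467f and miR-466i are 5 edits apart. Whether the 5 probes share signal was not tested. Of the 7 members with a longest run of 3 CA none was detected, and of the 31 with a shorter run 2 were, miR-669c and miR-669n. The median rank was 77.2 for the members with at least 4 CA, 25.5 for those with 3 and 27.7 for those with fewer.

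**Figure D3:**
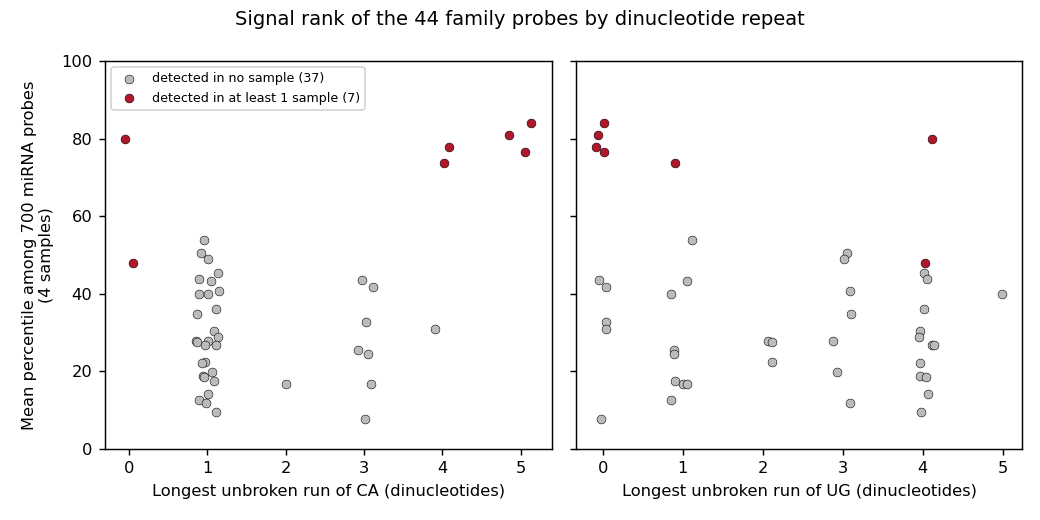
Each point is a family probe, placed by its longest unbroken run of CA (left) or UG (right) and by its mean percentile of signal among the 700 miRNA probes over 4 samples; points are shifted sideways for sight, and red marks the 7 detected in at least 1 sample. Detected members lie at 4 or more CA on the left, apart from miR-669c and miR-669n, while UG runs of 4 hold mostly undetected members.

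A run of UG did not set members apart in the same way. At least 4 UG in a row occur in 15 members, of which 2 were detected, miR-669c and miR-669n. These 2 differ from each other by 2 edits, and their nearest undetected relatives in the family are 5 edits away. Whether the 2 probes share signal was not tested. The other members rich in G and U share 4 letters that these 2 lack. CAUG, which reads the same on its reverse complement, was found in 27 of the 29 members that have no excess of A and C. None of these 27 was detected, and both members without CAUG were. Among the 15 members rich in A and C, 6 hold CAUG and 1 of these, miR-466g, was detected, against 4 detected of 9 without it. Over all 700 probes 12.9% hold CAUG. Outside the family, 29.8% of the 57 probes with CAUG and 35.1% of the 599 without were detected. These letters were noticed after the values were seen, and no test was made of them.

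The array also holds 4 asterisk strands of the same hairpins, of which 2 were detected, miR-467b* in 3 samples and miR-467a* in 2. They differ by 1 edit, and miR-467a* is 2 edits from miR-467f, and whether these probes share signal was not tested.
miR-467b*: aUAUACAUacacacaccaacac
miR-467a*: aUAUACAUacacacaccuacac
miR-467b* read 51.8 and 104 units in differentiated replicates 1 and 2, against 41.1 and 62.1 in proliferating replicates 1 and 2. Its normalized log2 ratio of differentiated over proliferating cells had the other sign, -0.09 (limma adjusted p = 0.829), with 0.33 on array 1 and -0.51 on array 2. The matching members miR-467b and miR-467a, from the other arm, were undetected. miR-297a* and miR-467e* were undetected as well. By sequence miR-467e* is 2 edits from miR-467a* and 3 edits from miR-467f, and it had a mean percentile of 23.5.

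Only 3 probes outside the family have 4 CA or 4 UG in a row, all of them UG. miR-574-5p, known as a UG-rich decoy for the RNA-binding protein CELF1, was detected in all 4 samples. Its signal was 104 and 164 units in the differentiated samples, against 43.3 and 73.6 in the proliferating samples. The normalized log2 ratio of miR-574-5p was 0.28 (limma adjusted p = 0.625), with 0.89 on array 1 and -0.34 on array 2. miR-1187 was detected in differentiated replicate 1 alone, and miR-672 in no sample. No probe of the 3 holds a CA repeat, so the CA-repeat members have no counterpart outside the family on this array.

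None of the family's tested members was called higher or lower in the differentiated cells. The fit covered 172 probes, each detected in both differentiated or both proliferating samples, among them miR-466f-3p, miR-467f and miR-669c. A probe was called at an adjusted p under 0.05 in limma, Benjamini-Hochberg adjusted over all 172. Of the 3 members 0 were called, and 0 had an unadjusted p under 0.05. Over all tested probes 16.9% were called higher and 13.4% lower, 30.2% in either direction, and 44.8% had an unadjusted p under 0.05. miR-467f and miR-669c entered the fit only through detection in both differentiated samples, the stage in which their signal was higher, so the sign of their ratios is favoured by the filter. In bulk RNA, fewer cells with a microRNA and less of it per cell cannot be told apart.

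miR-466f-3p had a log2 ratio of differentiated over proliferating cells of 0.38 ± 0.59 (SD, n = 2 arrays; limma adjusted p = 0.39), with a 95% confidence interval of -0.55 to 1.32. For miR-467f the ratio was 0.29 ± 0.43 (adjusted p = 0.428), with an interval of -0.49 to 1.06. That of miR-669c was 0.26 ± 0.28 (adjusted p = 0.398), with an interval of -0.39 to 0.92. The intervals still admit a rise of up to 2.49-fold, so these values do not show that the members were level.

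The arrays did not match in size. On array 1 the ratios of miR-466f-3p, miR-467f and miR-669c were 0.80, 0.59 and 0.46, and on array 2 they were -0.04, -0.02 and 0.07. The members' signal on array 2 lay near the detection margin, and background correction added an offset of 50 units to all signals; the part of either in this gap was not tested. In the authors' deposited table the arrays went opposite ways. There miR-466f-3p had values of 283 and 72.4 in differentiated replicates 1 and 2, against 169 and 120 in proliferating replicates 1 and 2. In the authors' deposited table miR-467f had 144 and 45.2 in the differentiated samples, against 80.1 and 71.3 in the proliferating samples. The value of miR-669c in the authors' deposited table was 109 and 53.9 in the differentiated samples, against 67.9 and 84.5 in the proliferating samples. Each of these had its higher value within an array in the Cy5 channel, whichever stage that channel held. In that table the tested members all had opposite signs on the 2 arrays, and 28 of all 172 tested probes did. In the normalized ratios 34 of the 172 had opposite signs. Of the 7 detected members, some of which were not in the fit, 6 had opposite signs on the 2 arrays in the authors' deposited table. Whether dye or replicate sets this cannot be told apart.

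**Figure D4:**
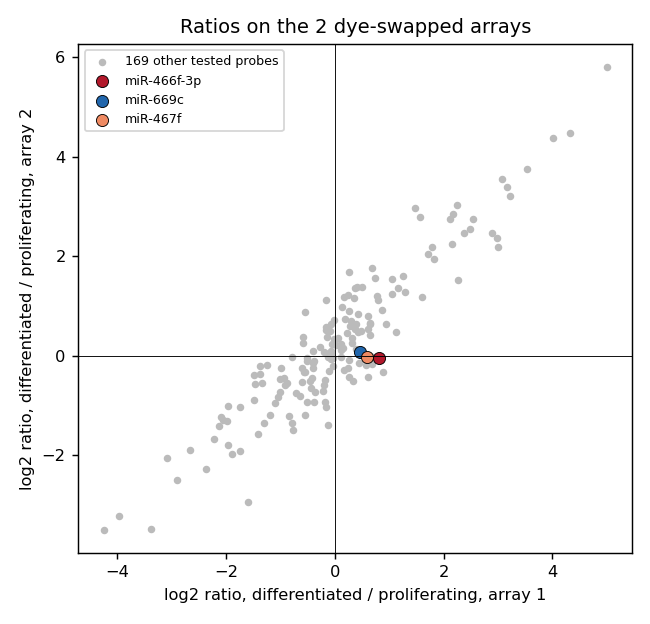
Log2 ratios of differentiated over proliferating cells on array 1 (horizontal) and array 2 (vertical) for the 172 tested probes, with the 3 tested family members in colour and the other 169 in grey. The members lie between 0.46 and 0.80 on array 1 and between -0.04 and 0.07 on array 2.

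When all 700 probes were fitted without a filter on detection, 0 of the 44 members were called by limma, where 3% of all probes were called higher and 1.86% lower. No member had an unadjusted p under 0.05, and the lowest adjusted p of a member was 0.627. The 37 undetected members had log2 ratios between -0.10 and 0.10 there. Their signals were at the level of empty spots, so a change of these members was not detectable here.

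The call depends on the centring of the ratios. The sources used here do not say which spike controls to centre on. The 15 used were those with the same share of spots above the margin as a detected miRNA in all 4 samples. With centring on the mean of 15 spike calibration probes, limma called all 3 tested members higher, with log2 ratios of 1.78 (adjusted p = 0.015) for miR-466f-3p, 1.69 (adjusted p = 0.0127) for miR-467f and 1.66 (adjusted p = 0.0103) for miR-669c. Under that centring 73.8% of all 172 probes were called higher and 2.91% lower, and the median over all of them was 1.51. When the authors' deposited table was fitted, 0 members were called, against 27.9% of probes higher and 32.6% lower, and with no replicate block 0 were called, against 18.6% higher and 15.7% lower.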

How the data were processed

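Total RNA of HC11 cells was run by LC Sciences on 2-colour miRNA arrays; per the labels' protocols, small RNAs were tailed with poly(A) and tagged for Cy3 or Cy5 staining. The scanner tables hold, per the file headers, mean spot intensity and its SD for the channel of each sample, with 3968 spots of which 3500 belong to miRNA probes. These deposited intensities still held the background. The authors also deposited processed intensities per probe, whose scale and centring are unknown; across the 172 tested probes they correlated with the same sample's values at 0.985 to 0.997 (log2). Their medians were 15.1 and 13.9 in differentiated replicates 1 and 2, against 13.9 and 13.6 in proliferating replicates 1 and 2. No source used here names a genome build for the array.

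The local background was the 20th percentile of spots within 7 rows and columns. Ratios used normexp (offset 50) and loess (span 0.3, control spots weight 0) in limma 3.58.1 under R 4.3.3, averaged over 5 spots, with the sign of array 2 turned. lmFit and eBayes had 1 residual and 2.08 prior degrees of freedom, two-sided. An exact permutation of 2 against 2 samples, which leaves out the pairing within arrays, cannot go below 0.333. Same-numbered samples were taken to share an array, inferred from the dyes and the dye-swap design; their deviations correlated at 0.343. The rule named every member detected in any sample and the 6 of highest mean percentile; further names were chosen with their values known. The members and lists were chosen with earlier results of these data known. Alternatives covered background, offset, normalization, centring, filter, block, dye, the authors' table, left-out samples and the detection rule.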

Additional observations from a re-analysis of the deposited data

How the results depend on the processing

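The counts of members called by limma, 0 higher and 0 lower, stayed at 0 with another offset, background, normalization, filter, block or dye term, with the authors' table and with each sample left out, but not with centring on the spike controls. That centring gave a median of all 172 probes of 1.51, against 0.11 before, and called 3 of 3 members higher, beside 73.8% of all probes higher and 2.91% lower; the spikes' mean of -1.40 was taken out of every ratio, so the shift applies to every probe alike. miR-466f-3p, miR-467f and miR-669c then had log2 ratios of 1.78, 1.69 and 1.66. With median centring the median of all probes was 0.53 and that of the members 0.56. With no replicate block the adjusted p was 0.544 for miR-466f-3p and 0.546 for miR-467f and miR-669c. Leaving out differentiated replicate 1 in that fit, where the spread of the single remaining sample is borrowed from the proliferating samples, turned miR-466f-3p to -0.29 and miR-467f to -0.10 (range over left-out samples -0.29 to 1.06 and -0.10 to 0.67), while miR-669c, at 0.26 with all samples, had 0.0073 without differentiated replicate 1 and 0.52 without differentiated replicate 2. Outside spike centring the lowest adjusted p among these members in any alternative was 0.0715, for miR-466f-3p without differentiated replicate 2.

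Detection counts depended on the margin. Members detected in both differentiated samples numbered 3, and 1 with 5 SDs, all 5 spots or no local background; without replicate 1 or 2 they were 3 to 7. In both proliferating samples they numbered 1, and 4 with 2 SDs or at least 1 spot, 0 with 5 SDs, all 5 spots or no local background, and 1 to 6 without a replicate. In differentiated replicate 2 the count of 3 became 1 with 5 SDs, all 5 spots or no local background. In proliferating replicate 1 the count of 6 became 3 with 5 SDs and 10 with at least 1 spot. In proliferating replicate 2 the count of 1 became 4 with 2 SDs or at least 1 spot, and 0 with 5 SDs, all 5 spots or no local background. At least 1 sample detected 7 members in the main setting and 12 with at least 1 spot, and each alternative kept the same 7. The cause was not tested.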
